A study of Mus musculus with 32 samples.

Results

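The genes described here encode enzymes that add chemical marks to histones or DNA and enzymes that take them off. A list of 46 genes was taken by symbol. Of these, 45 had a probe annotated to a single listed symbol and were measured, out of 17145 genes tested in the series. The expression of Suv39h1 was not analysed here. All 45 measured genes were above the background floor on all 32 arrays, so the filter on dim probes removed no measured member.

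RNA came from whole uterus, collected on postnatal day 5 from female CD-1 animals, and each of 8 groups held 4 biological replicates on 1-colour arrays. In the Esr1 line, wild-type (WT) mice and mice with a conditional uterine knockout (cKO) of Esr1, the gene for estrogen receptor alpha, were given either vehicle or the synthetic estrogen diethylstilbestrol (DES). In the Foxa2 and Foxo1 lines, whose cKO mice lack a forkhead transcription factor in the uterus, WT and cKO mice were all given DES, so a DES response cannot be measured there. The sources used here give no Cre driver, DES dose or litter.

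Levels are log2 intensity minus the 75th percentile of the array, so a level of 0 equals that percentile, and a level is compared only with the same gene's level on other arrays. The 75th percentile lay between 697 and 1787 intensity units on 30 arrays. It was 551 on vehicle Esr1 WT replicate 4 and 9024 on DES Foxa2 WT replicate 1. The former also had an Xist level of -2.35, against 3.56 to 4.02 on the other vehicle Esr1 WT arrays, although its label says female. Called changes that these doubted arrays moved by over 1.5 times, or whose call they changed, are given with and without them, singly or as a count. As a check of the labels, Foxa2 was lower by 2.99 ± 0.40 (SE) in its cKO and Foxo1 by 2.64 ± 0.19 in its cKO (limma adjusted p = 4.5e-05 and 1.0e-09). Esr1 in cKO minus WT was -1.96 ± 0.40 after DES (adjusted p = 3.9e-04) and -0.74 ± 0.40 with vehicle, which did not pass the test (adjusted p = 0.330).

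As background, DNA methyltransferases place methyl groups on cytosine: Dnmt1 copies the pattern after replication, and Dnmt3a and Dnmt3b set new marks, while TET dioxygenases oxidise them. Polycomb repressive complex 2 (PRC2) methylates histone H3 at lysine 27 through Ezh2 or Ezh1 with Suz12 and Eed, and Kdm6b removes that mark. Acetyltransferases such as Ep300 and Crebbp open chromatin, and histone deacetylases (HDACs) and the NAD-dependent sirtuins remove acetyl groups, some of them from proteins outside the nucleus. In uterus, estrogen receptor alpha recruits several of these enzymes to its target genes, and neonatal DES exposure is a classic model of lasting uterine change.

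After DES, Esr1 WT uteri had lower levels of 20 of the 45 enzyme genes and higher levels of only 2, Ezh1 and Sirt7 (limma, adjusted p under 0.05 over all genes). The 22 called members are 48.9% of those measured, against 51.8% of all genes. Lower calls were 30.3% and higher calls 21.5% of all genes. The median member change was -0.41 and the median over all genes -0.16, both in log2 units. Among enzymes that place marks, 8 of 18 fell and 1 rose (median -0.39), and among enzymes that remove them, 12 of 27 fell and 1 rose (median -0.46). Changes past 2-fold were found for 8 members, or 17.8%, against 33.2% of all genes. For 21 members no DES array overlapped the vehicle arrays, against 50.5% of all genes. In whole tissue, fewer cells that express a gene and less RNA per cell cannot be told apart.

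The choice of array scaling touches these directions. Scaled to the array median instead, the median change of all genes was 0.09 and not -0.16, and 4 members were called higher and 11 lower. With it, 56.8% of all called genes were higher, against 41.5%. Under quantile normalization 3 members were higher and 21 lower. Without the doubted arrays, 2 members were higher and 27 lower, against 63.2% of all genes called.

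**Figure D1:**
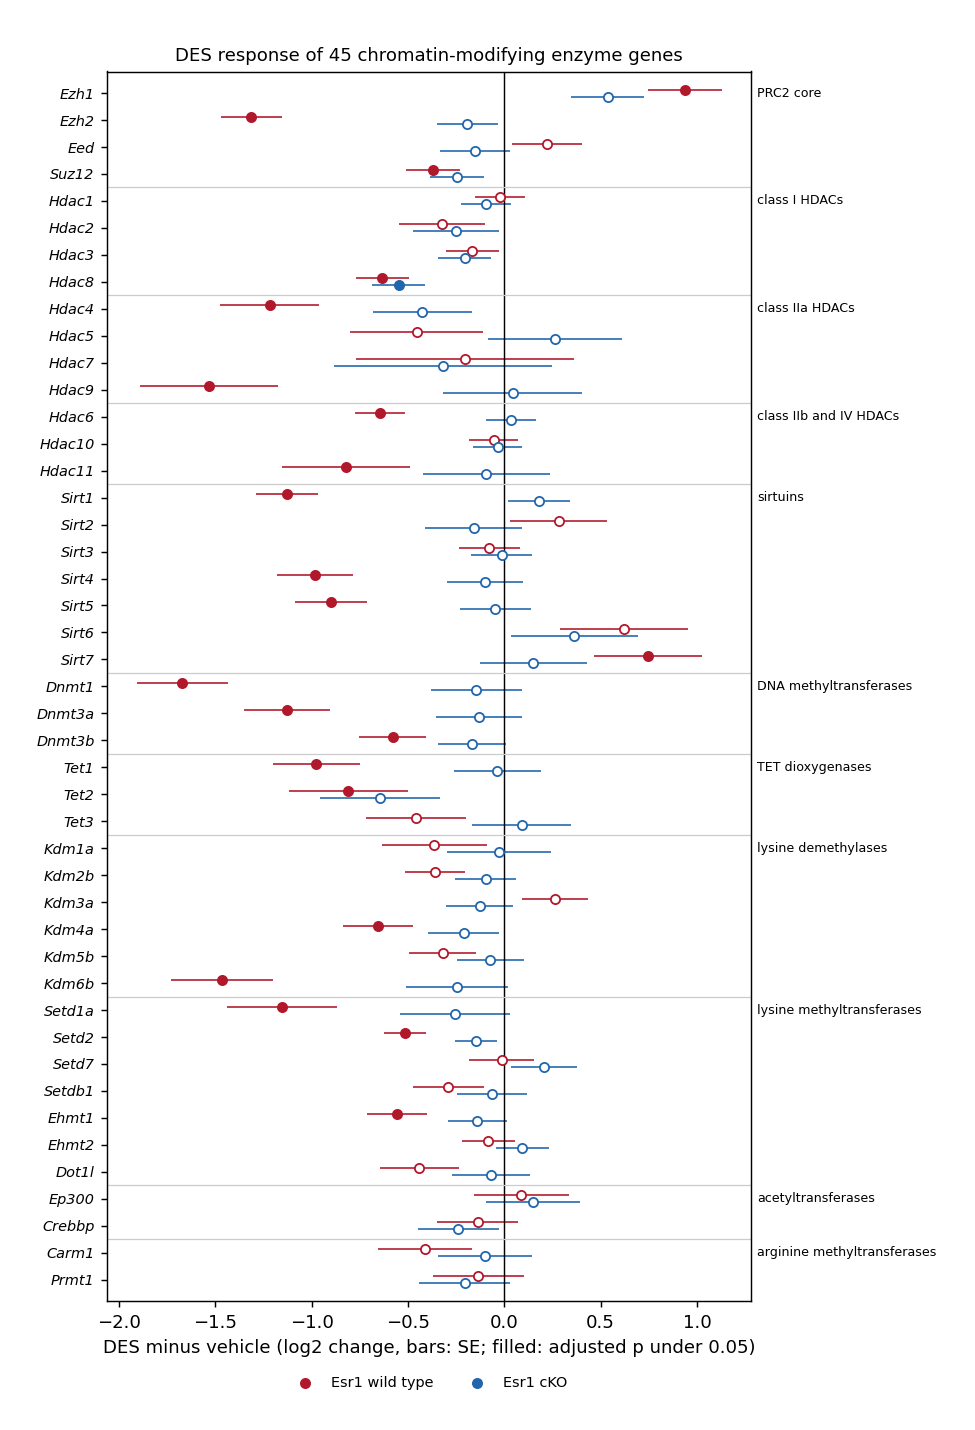
Log2 change from vehicle to DES (horizontal axis) for the 45 measured enzyme genes (vertical axis, grouped by role) in Esr1 WT (red) and Esr1 cKO (blue) uteri. Bars are the standard error of the limma contrast and filled points passed adjusted p under 0.05, which 22 genes did in WT and 1, Hdac8, did in cKO.

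Promoter windows from RefSeq (GRCm38.p6), which run from 250 bases before to 50 after a gene's start, were found for 41 of the 46 listed genes. Hdac1, Hdac3, Hdac10, Kdm6b and Carm1 had none. The 58 member windows held a median of 23 CpG dinucleotides, against 7 in all 32851 windows. The letters TTTCCCGC, TTTCGCGC, TTTGCCGC and TTTGGCGC, forms of the site for the cell-cycle factor E2F, were searched on both strands. They occurred in 5 member windows (8.62%), against 2.26% of all windows, at Ezh2, Dnmt1, Suz12, Sirt4 and Suv39h1. Windows of the 4 measured genes among these are shown because all of them fell with DES in WT, with a median change of -1.15. The Suz12 call among them was lost under median scaling. Of the 36 measured genes with a window and no match 15 fell and 2 rose, with a median of -0.40. A link between the letters and the fall was not tested, and falling genes were not counted among all genes with a match. All 4 forms contain CG, and the windows compared were not matched for CpG content. The Ezh1 window, with no match, is shown because its product can take the place of that of Ezh2 in PRC2 and its level moved the other way. Each sequence reads 5′ to 3′ along the gene's strand, and capitals mark the E2F letters on either strand.
Ezh2: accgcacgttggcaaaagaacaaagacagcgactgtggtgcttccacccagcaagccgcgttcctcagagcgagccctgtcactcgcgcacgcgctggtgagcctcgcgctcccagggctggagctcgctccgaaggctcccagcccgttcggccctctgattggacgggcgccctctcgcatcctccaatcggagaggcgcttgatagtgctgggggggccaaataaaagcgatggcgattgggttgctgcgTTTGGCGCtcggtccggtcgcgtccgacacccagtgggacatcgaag
Dnmt1: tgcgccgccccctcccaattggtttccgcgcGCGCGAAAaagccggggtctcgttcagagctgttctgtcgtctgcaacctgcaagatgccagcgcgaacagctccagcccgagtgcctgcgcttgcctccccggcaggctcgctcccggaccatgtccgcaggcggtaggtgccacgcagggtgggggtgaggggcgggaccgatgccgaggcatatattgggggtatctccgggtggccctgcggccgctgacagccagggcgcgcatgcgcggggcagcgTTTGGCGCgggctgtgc
Suz12: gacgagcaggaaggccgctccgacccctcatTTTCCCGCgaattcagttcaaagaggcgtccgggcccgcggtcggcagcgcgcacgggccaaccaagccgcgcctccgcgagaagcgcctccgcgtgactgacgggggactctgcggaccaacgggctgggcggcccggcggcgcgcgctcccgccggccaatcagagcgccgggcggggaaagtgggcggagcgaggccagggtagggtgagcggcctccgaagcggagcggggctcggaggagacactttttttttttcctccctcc
Sirt4: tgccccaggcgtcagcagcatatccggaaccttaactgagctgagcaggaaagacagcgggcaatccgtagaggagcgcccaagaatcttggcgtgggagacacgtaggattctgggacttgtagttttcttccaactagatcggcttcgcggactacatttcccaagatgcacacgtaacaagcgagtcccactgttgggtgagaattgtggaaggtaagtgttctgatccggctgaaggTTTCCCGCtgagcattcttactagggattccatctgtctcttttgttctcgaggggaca
Ezh1: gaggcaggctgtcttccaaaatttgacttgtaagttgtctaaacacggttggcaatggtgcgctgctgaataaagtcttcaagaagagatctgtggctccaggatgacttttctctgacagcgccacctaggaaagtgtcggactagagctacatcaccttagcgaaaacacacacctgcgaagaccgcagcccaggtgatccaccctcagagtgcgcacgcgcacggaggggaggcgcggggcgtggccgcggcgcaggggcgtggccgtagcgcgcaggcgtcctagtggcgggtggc
The Ezh2, Dnmt1, Suz12, Sirt4 and Ezh1 windows lie at chr6:47594981-47595280 (minus strand), chr9:20952574-20952873 (minus strand), chr11:79992856-79993155 (plus strand), chr5:115484248-115484547 (minus strand) and chr11:101226414-101226713 (minus strand). They hold 31, 33, 41, 15 and 23 CpG dinucleotides in that order. The Dnmt1 window holds 2 matches and belongs to 1 of that gene's 3 listed starts. Such a match is a run of letters and not a bound site. The estrogen response element GGTCANNNTGACC was in 0 of the 58 member windows and 0.07% of all windows, and the forkhead letters TGTTTAC were in 3 member windows (5.17%; Eed, Hdac7 and Kdm2b) and 3.65% of all.

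All 3 DNA methyltransferase genes fell with DES in Esr1 WT. Dnmt1 levels on the 4 vehicle WT arrays were 2.38, 1.97, 2.03 and 2.98, and on the 4 DES WT arrays 0.60, 0.43, 1.05 and 0.57. Every DES array lay below every vehicle array, and the highest vehicle value was on the doubted array. Dnmt1 fell by 1.67 ± 0.24 in log2 units, to 31.4% of the vehicle level (limma adjusted p = 1.3e-06). Without the doubted arrays the Dnmt1 change was -1.46 (adjusted p = 9.4e-08). Dnmt3a, a de novo enzyme, had vehicle WT levels of 0.96, 0.39, 0.40 and 1.82 and DES WT levels of -0.38, -0.46, -0.25 and 0.15. Its groups did not overlap, and the doubted array was again the highest. The Dnmt3a change was -1.13 ± 0.22 (adjusted p = 1.3e-04), and -0.82 without the doubted arrays (adjusted p = 1.6e-04). Dnmt3b, the other de novo enzyme, fell by 0.58 ± 0.18 (adjusted p = 0.00704), a call that was lost under median scaling (-0.33, adjusted p = 0.139).

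Genes for the TET enzymes, which work against DNA methylation, moved the same way in part. Tet1 levels were -1.26, -1.82, -1.75 and -1.37 with vehicle and -2.66, -3.09, -2.15 and -2.21 with DES. The groups did not overlap. Tet1 fell by 0.98 ± 0.23 (limma adjusted p = 6.7e-04). Tet2 levels were -0.38, -0.08, 0.33 and -1.55 with vehicle and -1.25, -1.17, -1.37 and -1.13 with DES, and these overlapped only through the doubted array. The Tet2 change of -0.81 ± 0.31 (adjusted p = 0.0299) was -1.19 without the doubted arrays (adjusted p = 3.0e-04). The Tet2 call was lost under median scaling (-0.56, adjusted p = 0.102), with the mean of a gene's probes (-0.47, adjusted p = 0.0515) and with only the compared groups in the fit (adjusted p = 0.0928). It was also lost when any 1 of 5 other arrays was left out (adjusted p from 0.0546 without vehicle Esr1 WT replicate 1 to 0.142 without replicate 3 of that group, the others being vehicle replicate 2 and DES Esr1 WT replicates 1 and 3). Tet3 had a change of -0.46, which did not pass the test (adjusted p = 0.140) and was -0.07 without the doubted arrays (adjusted p = 0.7).

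Within PRC2 the catalytic subunits Ezh2 and Ezh1 moved in opposite directions. Ezh2 levels were 1.49, 1.49, 1.67 and 1.71 with vehicle and 0.20, -0.04, 0.54 and 0.41 with DES in WT. No DES array came near the vehicle arrays. Ezh2 fell by 1.31 ± 0.16, to 40.2% of the vehicle level (limma adjusted p = 9.0e-08), and by 1.27 without the doubted arrays. Ezh1 levels were -2.18, -2.64, -2.21 and -3.09 with vehicle and -1.51, -1.28, -1.67 and -1.91 with DES. All DES arrays were above all vehicle arrays, of which the doubted array was the lowest. Ezh1 rose by 0.94 ± 0.19, or 1.92-fold (adjusted p = 1.7e-04), and by 0.75 without the doubted arrays. Suz12, the scaffold subunit, fell by 0.37 ± 0.14 (adjusted p = 0.0277), and Eed, which binds the H3 lysine 27 mark, had a change of 0.22 that did not pass (adjusted p = 0.317; 0.06 without the doubted arrays). The Suz12 call was lost under median scaling (-0.12, adjusted p = 0.629). It was also lost without any 1 of vehicle Esr1 WT replicates 1, 2 and 3 or DES Esr1 WT replicates 2 and 3 (changes of -0.35 to -0.33, adjusted p from 0.0589 to 0.0779). Without both doubted arrays the Suz12 change was -0.43 and passed (adjusted p = 0.00436).

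Of the other 7 measured lysine methyltransferase genes, 3 fell with DES in Esr1 WT. Setd1a, the catalytic subunit of an H3 lysine 4 methyltransferase complex, had vehicle levels of 1.56, 1.63, 1.74 and 3.11 and DES levels of 0.81, 1.07, 0.73 and 0.83. No DES array reached a vehicle array, and the highest vehicle value was the doubted array's. Setd1a fell by 1.15 ± 0.29 (limma adjusted p = 0.00134), and by 0.79 without the doubted arrays (adjusted p = 7.8e-06). Setd2, which trimethylates H3 lysine 36, fell by 0.51 ± 0.11 (adjusted p = 3.2e-04), and Ehmt1, which methylates H3 lysine 9 together with Ehmt2, fell by 0.56 ± 0.15 (adjusted p = 0.00351). Both calls were lost under median scaling (adjusted p = 0.0636 for Setd2 and 0.146 for Ehmt1). Setd7, Setdb1, Ehmt2 and Dot1l did not pass, nor did the acetyltransferase genes Ep300 and Crebbp or the arginine methyltransferase genes Carm1 and Prmt1. Carm1 levels were 1.39, 1.40, 1.37 and -0.18 with vehicle, the low one on the doubted array. Without the doubted arrays the Carm1 change was -0.80 and passed (adjusted p = 1.7e-05), against -0.41 with them (adjusted p = 0.160). Setdb1 (-0.54, adjusted p = 0.00210), Crebbp (-0.28, adjusted p = 0.0256) and Prmt1 (-0.27, adjusted p = 0.0382) were also called lower without them.

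**Figure D2:**
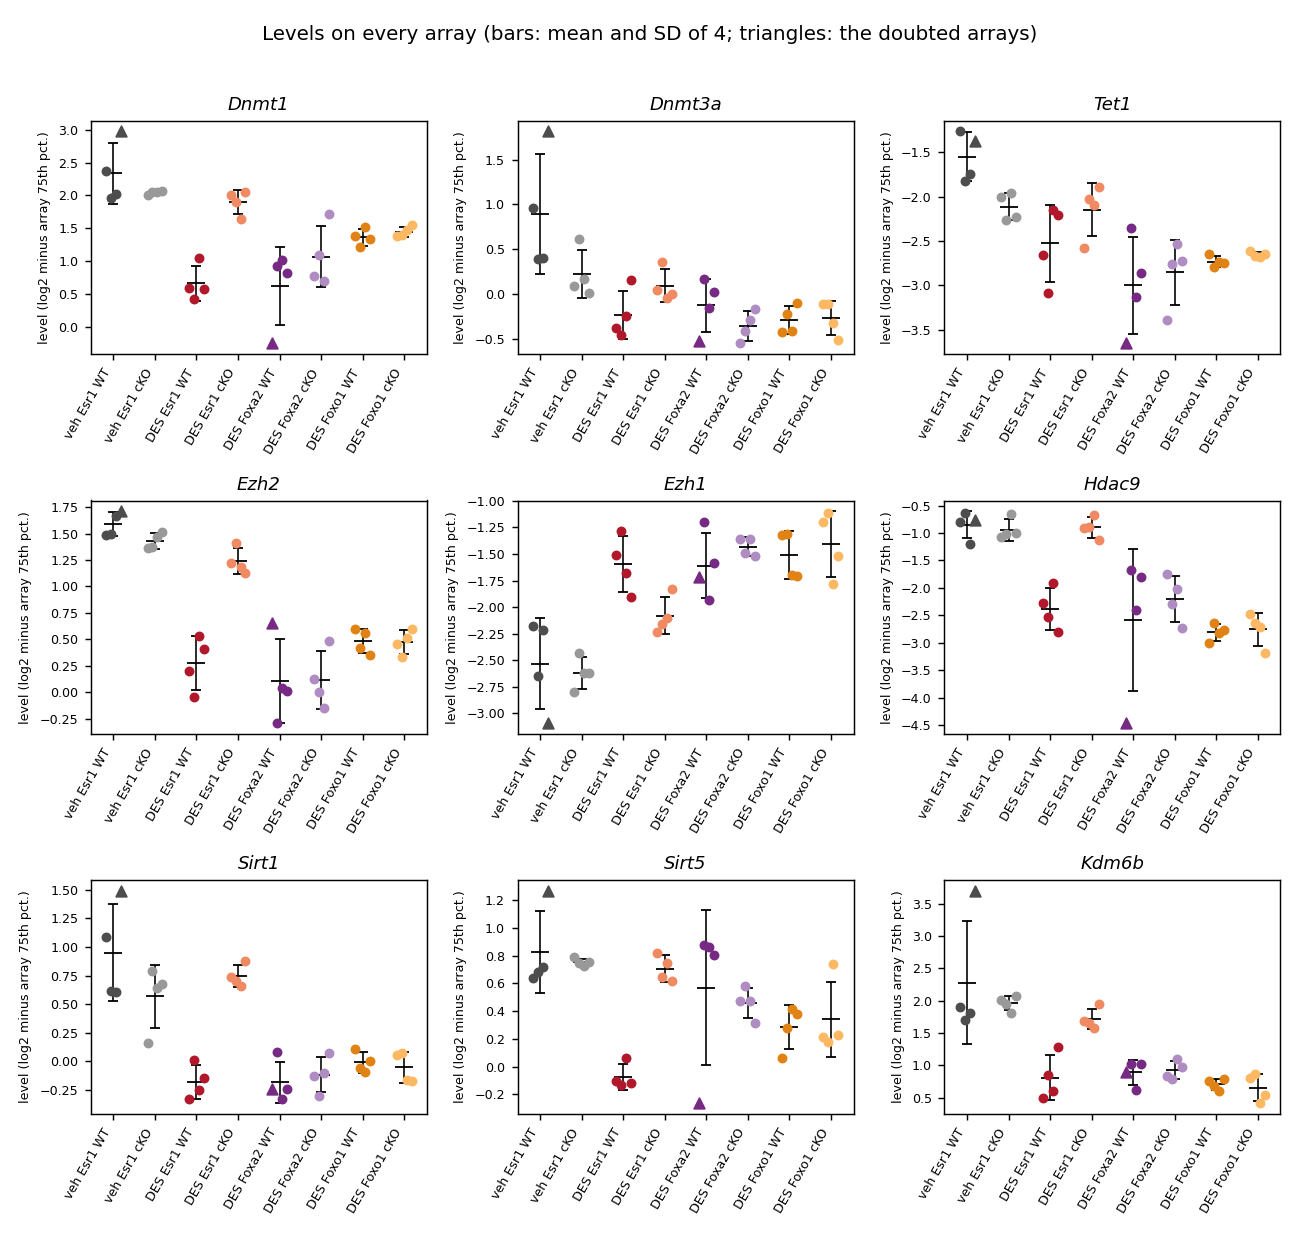
Level on each array (vertical axis, log2 intensity minus the array's 75th percentile) of 9 enzyme genes in the 8 groups (horizontal axis), with the mean and SD of 4 arrays; triangles are the doubted arrays. Every DES Esr1 WT array is below every vehicle Esr1 WT array in 8 panels, and in the Ezh1 panel every one is above.

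Among the 11 zinc-dependent deacetylase genes, 5 fell with DES in Esr1 WT and none rose. Hdac9, a class IIa enzyme best known for binding MEF2 factors in muscle, had vehicle levels of -0.79, -0.64, -1.20 and -0.76 and DES levels of -2.28, -2.53, -1.91 and -2.80. The groups did not overlap. Hdac9 fell by 1.53 ± 0.36, to 34.5% of the vehicle level (limma adjusted p = 8.0e-04). Hdac4, of the same class, had vehicle levels of 1.66, 1.40, 1.47 and 3.13 and DES levels of 0.56, 0.81, 0.58 and 0.84, again without overlap and with the doubted array far above the rest. Hdac4 fell by 1.22 ± 0.26 (adjusted p = 2.5e-04), and by 0.81 without the doubted arrays (adjusted p = 2.3e-06). Hdac5 and Hdac7, the other class IIa genes, did not pass, although Hdac5 was called lower without the doubted arrays (-0.39, adjusted p = 0.0165).

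Hdac6, a cytoplasmic deacetylase of tubulin, had levels of 1.11, 1.28, 1.38 and 1.46 with vehicle and 0.86, 0.60, 0.63 and 0.56 with DES in WT, with no overlap. It fell by 0.65 ± 0.13 (limma adjusted p = 1.4e-04). Hdac8, a class I enzyme that deacetylates cohesin, fell by 0.63 ± 0.14 (adjusted p = 3.8e-04), and its DES arrays lay between -1.86 and -1.80, below the vehicle range of -1.50 to -1.01. Both calls were lost under median scaling (adjusted p = 0.0819 for Hdac6 and 0.0623 for Hdac8). Hdac1, Hdac2 and Hdac3, the catalytic subunits of the main nuclear corepressor complexes, did not pass, with changes between -0.32 and -0.02, although Hdac2 was called lower without the doubted arrays (-0.50, adjusted p = 0.0171). Hdac11, the class IV enzyme, had vehicle levels of -1.01, -1.15, -1.21 and -2.18 and DES levels of -2.55, -1.95, -2.14 and -2.20, overlapping only through the doubted array. Its change was -0.82 ± 0.33 (adjusted p = 0.0397) and -1.08 without the doubted arrays (adjusted p = 1.5e-05), but the call was lost without any 1 of vehicle Esr1 WT replicates 1, 2 and 3 or DES Esr1 WT replicates 1, 3 and 4 (adjusted p from 0.0577 to 0.112). The Hdac11 call was also lost with quantile normalization (adjusted p = 0.0506) and median scaling (adjusted p = 0.11).

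Of the 7 sirtuin genes, 3 fell and 1 rose. Sirt1, a nuclear deacetylase of histones and transcription factors, had vehicle levels of 1.08, 0.61, 0.61 and 1.49 and DES levels of -0.33, 0.01, -0.25 and -0.15. All DES arrays were below all vehicle arrays. Sirt1 fell by 1.13 ± 0.16, to 45.7% of the vehicle level (limma adjusted p = 1.4e-06), and by 0.95 without the doubted arrays. The mitochondrial sirtuins Sirt4 and Sirt5 also fell, while the third of them, Sirt3, the main mitochondrial deacetylase, did not pass. Sirt4 went from 0.77, 0.81, 1.03 and 1.02 to -0.24, 0.04, 0.04 and -0.15, a change of -0.98 ± 0.20 (adjusted p = 1.6e-04). Sirt5 went from 0.64, 0.68, 0.72 and 1.27 to -0.10, -0.13, 0.06 and -0.12, a change of -0.90 ± 0.19 (adjusted p = 2.0e-04). Neither gene's groups overlapped. Sirt7, a nucleolar deacetylase, rose from 2.19, 2.21, 2.29 and 2.50 to 3.07, 3.15, 3.04 and 2.92, also without overlap. The Sirt7 change of 0.75 ± 0.28 (adjusted p = 0.0265) was lost without any 1 of replicates 1 and 2 of either group (adjusted p from 0.0501 to 0.0579), and was 0.81 without the doubted arrays (adjusted p = 7.1e-08). Sirt6, a chromatin deacetylase, had a change of 0.62 and Sirt2, mainly cytoplasmic, one of 0.28, and neither passed. They were 0.31 for Sirt6 and -0.18 for Sirt2 without the doubted arrays, and again neither passed.

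Among 6 lysine demethylase genes, Kdm6b and Kdm4a fell. Kdm6b levels were 1.90, 1.70, 1.81 and 3.70 with vehicle and 0.50, 0.85, 0.61 and 1.28 with DES in WT. The groups did not overlap, and the doubted array was far above the other vehicle arrays. Kdm6b fell by 1.47 ± 0.27 (limma adjusted p = 4.2e-05), and by 0.99 without the doubted arrays (adjusted p = 3.1e-06). Kdm4a, which acts on H3 lysines 9 and 36, fell by 0.66 ± 0.18 by its brightest probe (adjusted p = 0.00374), while its other probe had a change of 0.22 that did not pass. The Kdm4a call was lost under median scaling (adjusted p = 0.137) and with the mean of its probes (adjusted p = 0.327). Kdm1a, Kdm2b, Kdm3a and Kdm5b did not pass, although Kdm2b was called lower without the doubted arrays (-0.59, adjusted p = 5.2e-05). Probes also differed for Kdm5b, Dot1l, Crebbp and Setd7. For each of these a dimmer probe was called lower with DES, by as much as 1.86 for Dot1l, while the brightest probe, used throughout, was not called.

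Gene lists for other cell types and for cell division moved with these changes, and their part in the members' results was not tested. Of 21 measured proliferation genes, 20 fell with DES in Esr1 WT (median -1.53). Their summed linear level, relative to the array's 75th percentile, was 286.4 to 413.3 with vehicle and 81.04 to 165.1 with DES. Epithelial markers rose for 10 of 11 genes, from sums of 143.7 to 246.9 up to 326.3 to 391.2. Leukocyte markers rose for 7 of 7, from 10.78 to 13.51 up to 33.54 to 42.42. Smooth muscle markers fell for 7 of 9, from 339.7 to 554.2 down to 220.1 to 259.9, and endothelial markers fell for 6 of 8, from 41.38 to 73.5 down to 22.93 to 30.16. Every measured gene of these 5 lists was above the floor on every array of both groups. The uterine and female tract genes, among them Pgr and Hoxa10, were above the floor for 9 of 9 in DES Esr1 WT and 8 of 9 with vehicle. Their sums were 45.92 to 58.72 with vehicle and 17.7 to 21.27 with DES in WT. In Esr1 cKO those sums were 43.94 to 48.72 with vehicle and 39.94 to 44.68 with DES. Stromal marker sums in WT were 515.2 to 692.1 with vehicle and 692.2 to 720.9 with DES.

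In Esr1 cKO uteri DES changed 1 of 45 enzyme genes, Hdac8, which fell, against 8.98% of all genes called, 2.58% lower and 6.39% higher, with a median member change of -0.10 and -0.04 over all genes. Hdac8 went from -1.27, -1.15, -1.15 and -1.10 with vehicle to -1.84, -1.56, -1.52 and -1.92 with DES. The groups did not overlap, and the fall of 0.55 ± 0.14 (limma adjusted p = 0.00926) was close to the 0.63 in WT. The call was lost under median scaling (-0.46, adjusted p = 0.0983) and without DES Esr1 cKO replicate 4 (-0.48, adjusted p = 0.0502). At an unadjusted p under 0.05 there were 3 members, and the share of all genes at that cutoff was not counted, here or below. For 9 members the groups did not overlap, against 30.8% of all genes. Of the 20 genes that fell in WT, 19 were not called in cKO.

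The difference between the genotypes' DES responses was tested itself, as an interaction. It was called for 10 members, all positive (response in cKO minus response in WT), against 15.4% of all genes called positive and 27.3% in either direction. All 10 were called lower with DES in WT, and none of them was called in cKO. In cKO the means of Sirt1 (0.57 to 0.74), Hdac9 (-0.94 to -0.90) and Hdac6 (1.40 to 1.43) were slightly higher with DES, and the others were lower. The median member difference was 0.26 and that of all genes 0.12. Dnmt1 levels in Esr1 cKO were 2.01, 2.05, 2.06 and 2.06 with vehicle and 2.01, 1.89, 1.64 and 2.05 with DES, so the ranges overlapped where those of WT were far apart. Dnmt1 changed by -0.14 in cKO (adjusted p = 0.853), and the difference in response was 1.53 ± 0.33 (limma adjusted p = 0.00114). Ezh2 in cKO was 1.37, 1.37, 1.47 and 1.51 with vehicle and 1.23, 1.42, 1.19 and 1.13 with DES, a change of -0.19 (adjusted p = 0.612) that overlapped in range. Its difference in response was 1.12 ± 0.22 (adjusted p = 4.5e-04). Sirt1 in cKO was 0.16, 0.79, 0.64 and 0.67 with vehicle and 0.74, 0.71, 0.66 and 0.88 with DES. Those values overlapped, and the difference in response was 1.31 ± 0.23 (adjusted p = 9.9e-05).

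Hdac9 had the largest difference in response. Its cKO levels were -1.08, -1.03, -0.66 and -1.01 with vehicle and -0.91, -0.89, -0.67 and -1.12 with DES. All 8 lay above the DES WT arrays, and the difference was 1.58 ± 0.51 (limma adjusted p = 0.0215). Kdm6b in cKO went from 2.01, 1.95, 1.81 and 2.07 to 1.68, 1.66, 1.58 and 1.95, with overlap. The Kdm6b difference was 1.22 ± 0.38 (adjusted p = 0.0162), and 0.75 without the doubted arrays (adjusted p = 0.00453). Hdac6 gave 0.68 ± 0.18 (adjusted p = 0.00648), Sirt4 0.88 ± 0.28 (adjusted p = 0.0200), Sirt5 0.85 ± 0.26 (adjusted p = 0.0163), Dnmt3a 1.00 ± 0.32 (adjusted p = 0.0198) and Tet1 0.94 ± 0.32 (adjusted p = 0.0286). Sirt4, Dnmt3a and Tet1 were not called between the genotypes, with vehicle or after DES. Their vehicle means were lower in cKO than in WT (Sirt4 0.48 against 0.91, Dnmt3a 0.22 against 0.89, Tet1 -2.11 against -1.55). Their DES means were higher in cKO (Sirt4 0.37 against -0.08, Dnmt3a 0.09 against -0.23, Tet1 -2.15 against -2.53). Median scaling ended the calls of Hdac6 (0.52, adjusted p = 0.159) and Sirt5 (0.69, adjusted p = 0.0723), and fitting only the compared groups those of Dnmt3a (adjusted p = 0.0509) and Kdm6b (adjusted p = 0.0601). The Tet1 call was lost without any 1 of 7 arrays, namely vehicle Esr1 WT replicate 1, vehicle Esr1 cKO replicates 2 and 4, DES Esr1 WT replicates 1 and 2, and DES Esr1 cKO replicates 2 and 4 (adjusted p from 0.0519 to 0.0795). Ezh1, the gene that rose in WT, had a cKO change of 0.54 (adjusted p = 0.0807) and a difference of -0.40 that did not pass (adjusted p = 0.288). Without both doubted arrays the interaction was called for 19 members, 18 positive and 1, Sirt7, negative (-0.66, adjusted p = 2.4e-04), against 42.4% of all genes.

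Genotype made no called difference among members with vehicle. None of the 45 passed in limma, against 7.48% of all genes, 2.68% higher and 4.79% lower. At an unadjusted p under 0.05 there were 7, among them Dnmt3a at -0.67 and Sirt2 at 0.69 in cKO minus WT, which were -0.37 and 0.23 without the doubted arrays. Sirt4 was also among them, at 0.60, 0.41, 0.47 and 0.43 in cKO and 0.77 to 1.03 in WT, a difference of -0.43 (adjusted p = 0.229). The share of all genes at the unadjusted cutoff was not counted. The number of called members was also 0 without the doubted array, and between 0 and 2 when single arrays were left out.

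After DES, 15 of 45 members were higher in Esr1 cKO than in WT uteri and none was lower, against 30.5% of all genes called, 16.6% higher and 13.9% lower. The median member difference was 0.36 and the median of all genes 0.03. For 24 members the arrays did not overlap, against 47.0% of all genes. Higher levels were found for 6 of 18 writers and 9 of 27 erasers. Of the 20 genes that DES had lowered in WT, 12 were among the 15. These comparisons share the DES Esr1 WT arrays, so the direction is not independent of the WT response. With median scaling 9 members were higher and 1 lower, and with quantile normalization 18 were higher and 2 lower. Without the doubted arrays, which enter this comparison only through the shared spread, 24 were higher and 3 lower, against 47.9% of all genes.

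Hdac9 differed most between the genotypes after DES, by 1.48 ± 0.36 (2.79-fold, limma adjusted p = 0.00208), and Dnmt1 by 1.24 ± 0.24 (2.36-fold, adjusted p = 1.7e-04). Ezh2 was higher by 0.96 ± 0.16 (adjusted p = 2.6e-05) and Sirt1 by 0.93 ± 0.16 (adjusted p = 5.2e-05). For all 4 genes every cKO array was above every WT array. Kdm6b was higher by 0.91 ± 0.27 (adjusted p = 0.00955), Sirt5 by 0.78 ± 0.19 (adjusted p = 0.00172) and Hdac6 by 0.77 ± 0.13 (adjusted p = 3.3e-05). Hdac6 levels of 1.54, 1.16, 1.56 and 1.47 in cKO stood above 0.56 to 0.86 in WT, and Sirt5 levels of 0.82, 0.65, 0.74 and 0.61 above -0.13 to 0.06.

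The remaining 8 higher calls were each lost when at least 1 of the compared arrays was left out. Their differences kept their direction, and the Hdac2 difference, for example, then ran from 0.48 to 0.64. All 15 calls held without both doubted arrays. Hdac11 had DES cKO levels of -1.13, -1.40, -1.28 and -1.21, above all DES WT arrays, and a difference of 0.95 ± 0.33 (limma adjusted p = 0.0290). Hdac4 had cKO levels of 1.44, 1.40, 1.20 and 1.66, also above WT, and a difference of 0.73 ± 0.26 (adjusted p = 0.0312). Setdb1, an H3 lysine 9 methyltransferase, was higher by 0.60 ± 0.18 (adjusted p = 0.0117) and its call was lost without DES Esr1 cKO replicate 4 (0.48, adjusted p = 0.0604). Left-out arrays ended the call of Hdac2 (0.59) for each of the 8 arrays, and of Suz12 (0.36) for all but DES Esr1 cKO replicate 4. For Hdac4 they were DES Esr1 WT replicates 1 and 3 and DES Esr1 cKO replicates 1, 2 and 4, and for Hdac11 WT replicates 1 and 4 and cKO replicates 1, 3 and 4. For Setd2 (0.30) they were WT replicates 1 and 2 and cKO replicates 1, 2 and 3. Dnmt3b (0.56) lost it without DES Esr1 WT replicate 2 (adjusted p = 0.0637) or DES Esr1 cKO replicate 1 (adjusted p = 0.0547). Kdm2b (0.49), an H3 lysine 36 demethylase found in a PRC1 complex, lost it without DES Esr1 WT replicate 1 (adjusted p = 0.0666) or DES Esr1 cKO replicate 4 (adjusted p = 0.0603). Among the losses for Hdac2, Suz12, Hdac4, Hdac11 and Setd2 the adjusted p ran from 0.0511 for Hdac11 to 0.162 for Setd2.

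Proliferation genes moved with this comparison too, and their part in it was not tested: 19 of 21 were higher in cKO after DES (median 1.11), with sums of 199.2 to 279.8 against 81.04 to 165.1 in WT. In cKO the median DES response of this list was -0.25. Epithelial markers were lower in cKO for 8 of 11 genes, with sums of 181.4 to 245.9.

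**Figure D3:**
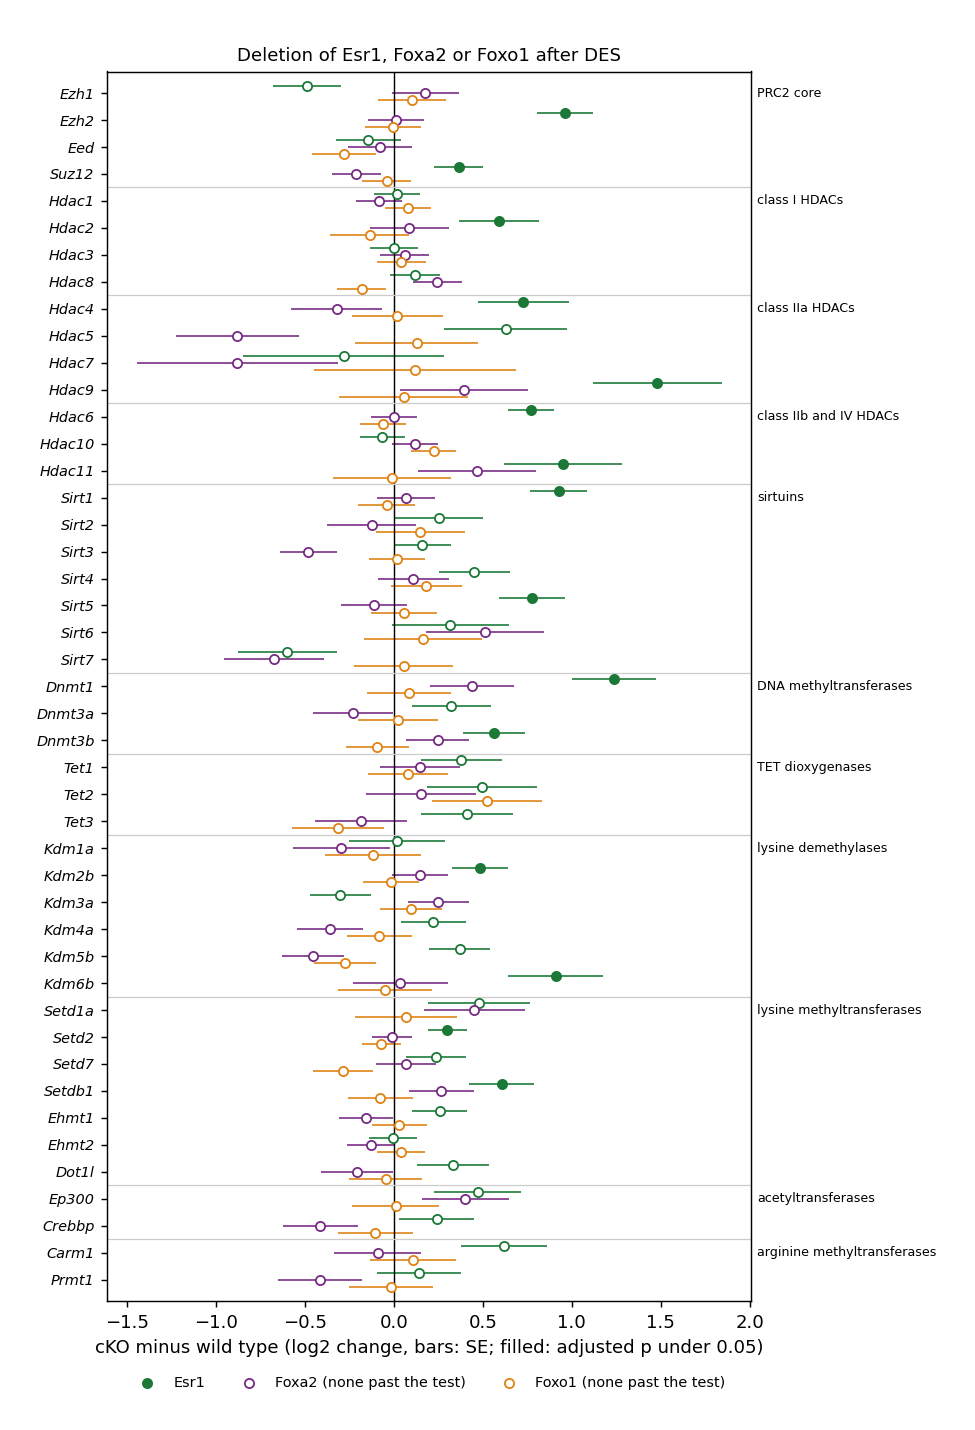
Log2 difference, cKO minus WT after DES (horizontal axis), for the 45 measured enzyme genes (vertical axis, grouped by role) in the Esr1 (green), Foxa2 (purple) and Foxo1 (orange) lines, with bars for the standard error and filled points where adjusted p was under 0.05. Called genes, 15 of them and all above 0, appear for the Esr1 line, and there are 0 for Foxa2 and 0 for Foxo1.

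Deletion of Foxa2, a forkhead factor required for uterine glands, gave no called member after DES (limma, 0 of 45, against 2.21% of all genes, 1.11% higher and 1.10% lower). At an unadjusted p under 0.05, where the share of all genes was not counted, there were 4, Hdac5 at -0.88, Sirt7 at -0.67, Sirt3 at -0.48 and Kdm5b at -0.46. The doubted array decided part of this. Hdac5 levels in Foxa2 WT were 6.05 on replicate 1 and 3.15 to 3.56 on the others, and Hdac7 levels were 6.06 against 1.23 to 1.54. The 4 differences without the doubted arrays were -0.21 for Hdac5, -0.13 for Sirt7, -0.33 for Sirt3 and -0.30 for Kdm5b, and none of these passed. Without the doubted arrays 1 member was called, Sirt5, lower in cKO by 0.39 (adjusted p = 0.0431). With all arrays, changes ranged from -0.88 to 0.51, and only Kdm2b, at 0.15, had groups that did not overlap, against 5.43% of all genes.

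Deletion of Foxo1, a forkhead factor of insulin signalling and decidual cells, likewise gave 0 called members of 45 by limma, against 0.222% of all genes, 0.181% higher and 0.0408% lower, and 0 at an unadjusted p under 0.05. Member differences ran from -0.32 for Tet3 to 0.53 for Tet2. Tet2 levels were -0.62, -0.84, -1.87 and -2.01 in cKO and -1.75, -2.02, -1.92 and -1.76 in WT, so 2 cKO arrays stood above and 2 lay with WT. The Tet2 difference was 1.15 over replicates 1 and 2 and -0.10 over replicates 3 and 4, sets that also differ across genes in this line. Sirt2 alone had groups that did not overlap, against 8.09% of all genes. Dnmt1 was 0.77, 1.09, 0.69 and 1.71 in Foxa2 cKO, 1.38, 1.39, 1.48 and 1.55 in Foxo1 cKO and 1.39, 1.21, 1.53 and 1.33 in Foxo1 WT. All of these were under the lowest vehicle Esr1 WT level of 1.97, a comparison across lines that was not tested.

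**Figure D4:**
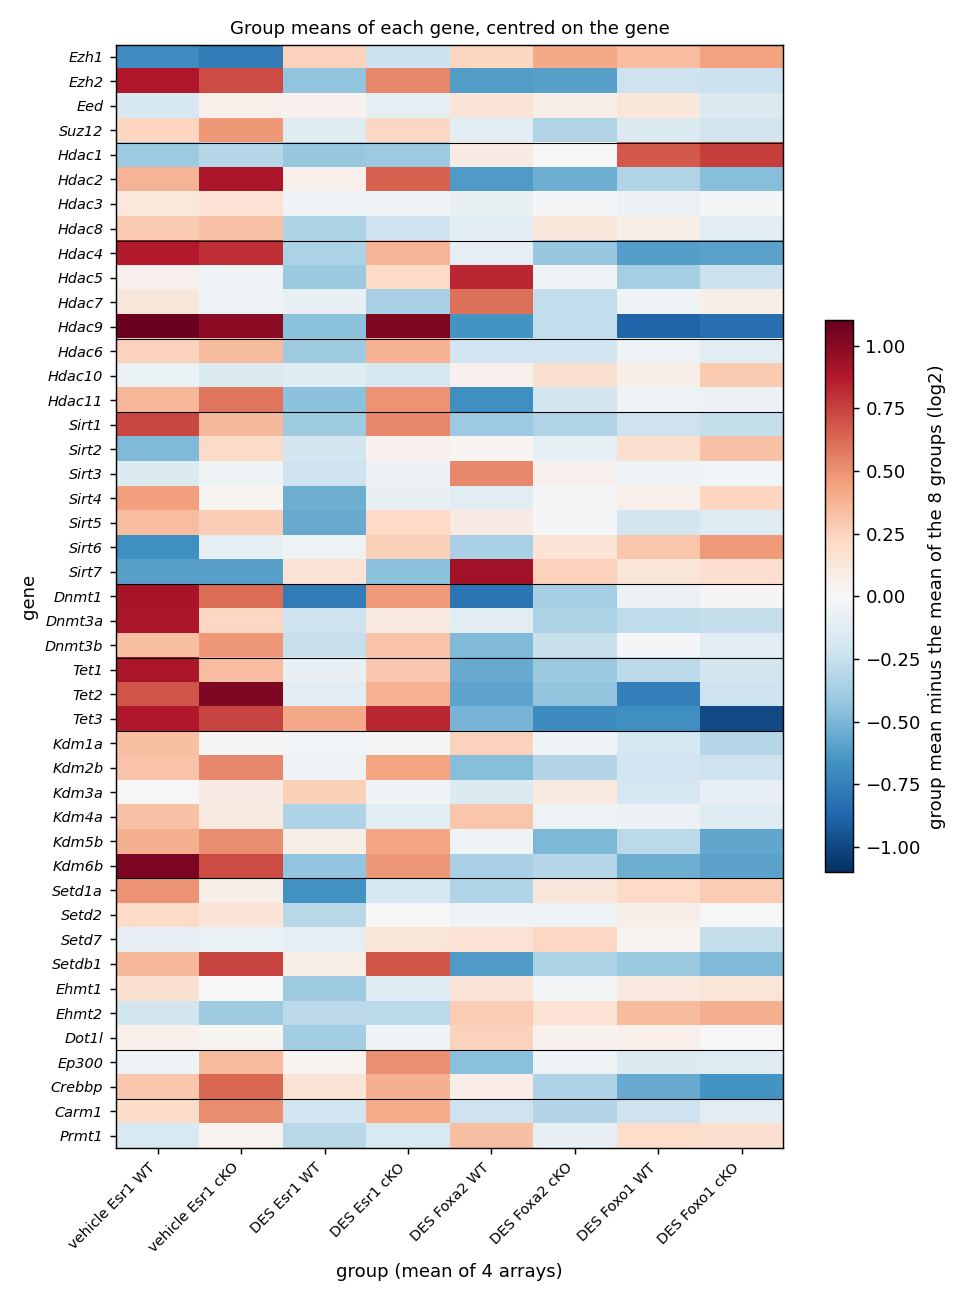
Mean level of each measured enzyme gene (vertical axis, grouped by role) in each of the 8 groups (horizontal axis), after subtracting that gene's mean over the groups, in log2 units from -0.99 to 1.08. Ezh2, Hdac9, Dnmt1 and Kdm6b are highest in the vehicle groups and DES Esr1 cKO and lower in the other 5 groups.

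After DES, enzyme genes also differed between the WT groups of the 3 lines, where line and any batch cannot be told apart. In Foxa2 WT against Esr1 WT, 14 of 45 members were called, 10 higher and 4 lower, against 35.3% of all genes, 24.8% higher and 10.5% lower. In Foxo1 WT against Esr1 WT it was 13, 9 higher and 4 lower, against 35.2%, 24.9% higher and 10.2% lower. The arrays did not overlap for 11 members with Foxa2 WT and 21 with Foxo1 WT, against 27.5% and 54.4% of all genes. Both comparisons share the DES Esr1 WT arrays. Scaling moved their splits: with median scaling 4 were higher and 6 lower for Foxa2 and 2 higher and 6 lower for Foxo1, and with quantile normalization 3 and 5, and 8 and 4. Of all called genes, the higher ones went from 70.4% to 57.4% with median scaling and 47.5% with quantile normalization for Foxa2, and from 70.9% to 53.5% with both for Foxo1.

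Hdac1 levels after DES were 3.43, 2.94, 3.22 and 3.11 in Esr1 WT and 4.27, 4.17, 4.30 and 4.35 in Foxo1 WT. These did not overlap, and Hdac1 was higher in Foxo1 WT by 1.10 ± 0.13 (limma adjusted p = 1.9e-07). It was higher by 0.51 in Foxa2 WT (adjusted p = 0.00361), which was 0.07 with quantile normalization (adjusted p = 0.710). Ehmt2 was higher by 0.64 in Foxo1 WT (adjusted p = 6.2e-04) and by 0.57 in Foxa2 WT (adjusted p = 0.00214), the latter lost with quantile normalization. Setdb1 was lower by 0.70 in Foxa2 WT (adjusted p = 0.00444), and Tet3 lower by 1.09 in Foxo1 WT (adjusted p = 0.00157), although with the mean of its probes the Tet3 difference was 0.00 (adjusted p = 0.991). Crebbp, lower by 0.71 in Foxo1 WT by its brightest probe (adjusted p = 0.00998), was higher by 0.42 with the mean of its probes (adjusted p = 0.00429), so it has no settled direction. Called in the same direction in every other setting were 1 of the 14 and 2 of the 13.

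The remaining Foxa2 WT calls were Hdac5 at 1.24, Sirt7 at 0.77, Sirt3 at 0.75, Dot1l, Kdm4a and Sirt5 at 0.64 each, Prmt1 at 0.63, Ehmt1 at 0.53, Kdm2b at -0.42, Hdac2 at -0.68 and Tet3 at -0.93. With the mean of a gene's probes 4 of these calls were lost, Tet3 (-0.12, limma adjusted p = 0.663), Hdac2 (-0.17, 0.491), Kdm4a (0.30, 0.208) and Sirt7 (0.62, 0.0676). Leaving out the doubted Foxa2 WT array ended the calls of Hdac2 (-0.43, limma adjusted p = 0.0901), Sirt7 (0.23, adjusted p = 0.0895) and Prmt1 (0.22, adjusted p = 0.196). Without both doubted arrays only Prmt1 was no longer called (adjusted p = 0.102), and 20 members were called, 13 higher and 7 lower, against 49.7% of all genes. Newly called higher were Setd1a and Sirt4 (0.73 each), Setd7 (0.48) and Setd2 (0.26). Newly called lower were Hdac7 (-0.47), Crebbp (-0.43) and Ezh2 (-0.36). Without the Foxa2 WT array Hdac5 was at 0.57 and Kdm4a at 0.33, both still called. Calls were also lost without DES Esr1 WT replicate 4 for Hdac2, without replicates 1, 3 or 4 of that group for Sirt7 and 1, 2 or 4 for Prmt1, and without DES Foxa2 WT replicates 3 or 4 for Dot1l. Kdm2b lost its call without any 1 of DES Esr1 WT replicates 2, 3 and 4 or DES Foxa2 WT replicates 2, 3 and 4 (adjusted p over these from 0.0507 to 0.107, both for Prmt1). The remaining Foxo1 WT calls were Setd1a at 0.88, Dnmt1 at 0.70, Sirt4 at 0.59, Ehmt1 at 0.50, Hdac8 at 0.41, Setd2 at 0.37, Hdac6 at 0.33, Kdm3a at -0.45 and Setdb1 at -0.48. Each of these 9 lost its call without at least 1 of the 8 arrays compared (adjusted p from 0.0502 for Hdac8 to 0.132 for Kdm3a). Proliferation genes were higher for 16 of 21 in Foxo1 WT and 8 of 21 in Foxa2 WT, and their part in these differences was not tested.

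Genes that work beside the members were read from a list of 87, of which 81 were measured. After DES in Esr1 WT 31 fell and 4 rose, or 43.2% called against 51.8% of all genes (median -0.22, against -0.16 over all genes). In Esr1 cKO 1 fell, and the interaction was called for 11, 9 positive and 2 negative, or 13.6% against 27.3% of all genes. Without the doubted arrays more of the 81 were called in each direction, for the DES response in WT and for the interaction. Of all genes 63.2% and 42.4% were then called. Uhrf1, which brings Dnmt1 to newly copied DNA, had levels of 3.33, 2.84, 2.62 and 5.18 with vehicle and 1.12, 0.29, 1.54 and 0.95 with DES in WT. The groups did not overlap, the doubted array being the highest, and Uhrf1 fell by 2.52 ± 0.35 (limma adjusted p = 1.2e-06). In DES Esr1 cKO uteri Uhrf1 was at 2.91, 2.88, 2.41 and 2.68, higher than in WT by 1.75, and its difference in response was 2.35. With both doubted arrays left out, Uhrf1 fell by 1.95 (adjusted p = 1.3e-07) and its difference in response was 1.79. Among the 9 DNA methylation maintenance and reader genes 4 fell and 1 rose, and among the 7 PRC2 accessory genes 4 fell and 1 rose. Of the latter Phf19, which guides PRC2 to its targets, fell by 1.19 ± 0.19 (adjusted p = 8.2e-06), and Rbbp7, a histone-binding subunit, rose by 1.08 (adjusted p = 5.3e-08). Cbx2, a PRC1 subunit that binds methylated H3 lysine 27, fell by 1.73 (adjusted p = 2.0e-08) and was higher by 1.55 in DES Esr1 cKO than in WT. After DES, 16 of the 81 were higher and 3 lower in Esr1 cKO than in WT, or 23.5% against 30.5% of all genes.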

How the data were processed

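Total RNA from whole uterus was labelled with Cy3. Per the submitters' processing notes, Agilent Feature Extraction 12 read the arrays. The deposited values are intensities for 45018 probes on a linear scale. What normalization the authors applied is not given in the sources used here. Probes were named through the platform annotation, 33653 of them with a single symbol and 56 with several, which were not named. Gene IDs were found among the RefSeq genes for 33517, whose symbol was taken from there. How many symbols changed by this was not counted.

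Each array's log2 intensity was set relative to its 75th percentile. Probes above the array's 30th percentile on at least 4 of 32 arrays were kept (36657), and a gene was read from its kept probe with the highest mean. Of the members, 23 had 1 probe and 22 several. limma 3.58.1 in R 4.3.3 fitted 1 mean per group with 24 residual and 2.91 prior degrees of freedom, and p-values were adjusted by Benjamini-Hochberg over 17145 genes. The script was tested on simulated data. Precision is limited by 4 arrays a group.

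The members, lists and comparisons were chosen with earlier results of these data known. Named with full values were the called members, at most 10 per direction in each comparison, with family members and at most 2 genes per partner or marker list beside them. Same-numbered arrays of WT and cKO deviated together in the Foxo1 line (correlations over genes of 0.29 to 0.38). Other-numbered arrays there ran from -0.33 to 0.25, positive within replicates 1 and 2 or 3 and 4 and negative between those sets. The pattern is thus not one of pairing by number alone. A replicate block was fitted as an alternative to the unpaired values printed. Same-numbered correlations ran from 0.00 to 0.46 in the Foxa2 line and from -0.11 to 0.13 in the Esr1 line. Other scalings, an added offset of 16, other probe filters and summaries, array weights, a replicate block, fewer groups and left-out arrays were tried.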

Additional observations from a re-analysis of the deposited data

Results flagged for a closer look

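The 4 arrays of each group were examined for single values far from the rest, gene by gene. Of 360 groups 36 held such a value, and chance gives about 1 in 20. Vehicle Esr1 WT replicate 4 held 10 of them and DES Foxa2 WT replicate 1 held 9.

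On vehicle Esr1 WT replicate 4 the levels stood high for Hdac3 (2.83), Hdac4 (3.13), Sirt5 (1.27), Tet3 (2.56), Kdm4a (3.59), Kdm6b (3.70) and Setd1a (3.11). On the same array they stood low for Suz12 (1.12), Hdac11 (-2.18) and Carm1 (-0.18). On DES Foxa2 WT replicate 1 they stood high for Hdac4 (1.71), Hdac5 (6.05), Hdac7 (6.06), Sirt7 (5.45), Kdm1a (4.99) and Kdm4a (4.09), and low for Sirt5 (-0.26), Dnmt1 (-0.25) and Setd1a (-0.016).

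On DES Esr1 cKO replicate 4, Hdac2 (-0.64), Setdb1 (0.25) and Carm1 (1.57) were high and Sirt3 (2.14) was low. Replicate 1 of that group had a high Eed (0.71) and a low Dot1l (-0.27). Among vehicle Esr1 cKO arrays, replicate 1 had a high Hdac2 (-0.12) and a low Hdac5 (2.97), replicate 3 a low Kdm3a (1.43) and replicate 4 a low Prmt1 (4.09). In Foxo1 cKO, Kdm5b was high on replicate 2 (-0.42), Sirt5 (0.74) and Prmt1 (4.41) on replicate 3 and Hdac3 on replicate 4 (2.26). Dot1l was high on DES Foxa2 cKO replicate 4 (0.41), Sirt5 on DES Esr1 WT replicate 3 (0.064), and Hdac10 was low on vehicle Esr1 WT replicate 1 (0.84).

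The DES response differed between Esr1 cKO and WT by the interaction test for 10 genes. In log2 units, response in cKO minus response in WT, these were Hdac9 at 1.58, Dnmt1 at 1.53, Sirt1 at 1.31, Kdm6b at 1.22, Ezh2 at 1.12, Dnmt3a at 1.00, Tet1 at 0.94, Sirt4 at 0.88, Sirt5 at 0.85 and Hdac6 at 0.68.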

How the results depend on the processing

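Limits: 4 arrays per group, whole tissue and a shared spread bound what could be detected, and 12 of the 22 DES calls in Esr1 WT, 0 of the 1 in cKO, 5 of the 10 interaction calls and 7 of the 15 higher levels in DES-treated Esr1 cKO held in every setting tried. Counts of called members under other settings were as follows. The DES response in Esr1 cKO gave 2 with quantile normalization, 2 with the mean of a gene's probes, 7 with only the compared groups, 10 with array weights and 3 without both doubted arrays. The interaction gave 19 with array weights and 19 without both doubted arrays. The vehicle genotype comparison gave 1 with the mean of probes and 2 with array weights. Esr1 cKO against WT after DES gave 23 with only the compared groups, 28 with array weights and 27 without both doubted arrays. The Foxa2 deletion gave 6 with array weights and 1 without both doubted arrays, and the Foxo1 deletion 2 with array weights. Foxa2 WT against Esr1 WT gave 8 with quantile normalization, 1 with only the compared groups and 24 with array weights. Foxo1 WT against Esr1 WT gave 8 with median scaling, 22 with only the compared groups, 25 with array weights and 21 without both doubted arrays. The cause of these moves was not tested. Leaving out 1 array at a time gave 18 to 25 for the DES response in Esr1 WT, 0 to 1 in cKO, 9 to 12 for the interaction, 0 to 2 for the vehicle comparison, 9 to 13 for Esr1 cKO against WT after DES, 0 to 1 for Foxa2, 0 to 0 for Foxo1, 10 to 17 for Foxa2 WT and 7 to 12 for Foxo1 WT against Esr1 WT. Directions turned for Prmt1 in Foxa2 WT against Esr1 WT with quantile normalization (-5e-04), and in Foxo1 WT against Esr1 WT with the mean of probes for Tet3 (0.0034) and Crebbp (0.42), whose probes differ. With the replicate block the counts were 23, 1, 10, 0, 15, 0, 0, 13 and 12 in the order above. Of the called members it ended the calls of no others than Hdac2 after DES (0.59, adjusted p = 0.0592), Kdm2b in Foxa2 WT (-0.42, 0.0506), and Kdm3a (-0.45, 0.0550) and Setdb1 (-0.48, 0.0530) in Foxo1 WT. A term for replicates 1 and 2 against 3 and 4, chosen after seeing the data, left 0 calls in the Foxa2 and Foxo1 deletions.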

Other observations

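Among further genes that act beside the enzymes, DES in Esr1 WT lowered the HDAC complex subunits Sap30 (-0.99) and Mta1 (-0.96), the acetyltransferase genes Kat6a (-1.11) and Ncoa1 (-0.95), the lysine methyltransferase genes Nsd2 (-1.19) and Setdb2 (-1.11), and the arginine methyltransferase genes Prmt8 (-1.96) and Prmt3 (-0.50), all with limma adjusted p under 0.05. Higher were the acetyltransferase genes Kat2b (1.32) and Ncoa3 (0.41) and the methyl-CpG reader Mbd2 (1.35). Without the doubted arrays Kat2b was at 0.78 and Mbd2 at 0.58, both still called. Of the 17 further lysine methyltransferase genes 9 fell, and of the 12 further lysine demethylase genes 1 fell, Kdm8 (-0.36). Of all genes 30.3% were called lower, and the lists were not tested against each other. Without the doubted arrays the demethylase gene Kdm1b (-0.41) was also called lower. The demethylase genes Kdm7a (0.58), Riox1 (0.44) and Phf8 (0.27) and the methyltransferase gene Kmt5a (0.53) were then called higher. Dnmt3l, a cofactor of the de novo DNA methyltransferases, fell by 1.39 in WT and its response differed from that in Esr1 cKO by 1.87. The response also differed for Nsd2 (0.99) and for Kat2b (-1.22, and -0.68 without the doubted arrays).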
